A study of Panonychus citri with 16 samples.

Results

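Contigs that were present in some of 4 mite populations and absent in others were examined in RNA of whole adult females. A contig was called on in a population when its TPM was at least 1 in every library, and off when its estimated count was at most 3 in every library. TPM is a length-corrected relative abundance, and an estimated count is a read count in which a read that matches several contigs is divided between them. Contigs that were on or off in each of the 4 populations, on in at least 1 and off in at least 1, numbered 87 of 17682, or 0.492%. Present and absent are used below for on and off, so a contig called absent can hold up to 3 counts in a library. The measured values chose these contigs, so their presence and absence are given as a description with no test.

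The mites belong to Panonychus citri, the citrus red mite. Their 4 populations come from Iran and differ in their response to fenpyroximate. Ramsar and Sari were highly resistant, Lahijan was moderately resistant, and Rasht was susceptible. Each population had 4 libraries of polyA RNA, each from a pool of 100 to 130 adult females reared on lemon leaves, and no treatment is given for any group. Only the high resistance level has more than one population, so resistance and population cannot be told apart. The rule left out Rasht replicate 2, which had no counts for 29.9% of contigs, against 10.1% to 15.8% in the other 15 libraries. Library totals were 9154459 to 16595528 estimated counts.

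Spider mites are small arachnids that feed on leaf cells, and the citrus red mite is a pest of citrus. METI-I acaricides such as fenpyroximate block complex I of the mitochondrial respiratory chain. Resistance in spider mites is known to come from changes in the target protein and from enzymes and transporters that break down or remove the compound. A contig is a stretch of transcript sequence put together from reads. It can be missing from a population because the gene is silent or deleted, or because the population carries a variant of the sequence that is listed as another contig, and these cannot be told apart here. The identifiers hold a population name and a number, and 0 of the 17682 were found in the gene table at hand, so no function is given. In pools of whole mites, fewer mites or fewer cells with a transcript and less of it in each cannot be told apart.

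Of the 87 contigs, 19 met both conditions in at least 1 population, because 3 counts or fewer were worth 1 TPM or more in a short contig. They have no single pattern, and their median length was 0.114 of that of the median contig with counts in a library. The other 68 had 1 pattern each and are described from here on. They fell into 12 of the 14 possible patterns. Of these contigs, 29 were on in 1 population, 17 in 2 and 22 in 3.

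The most frequent pattern was presence in Sari alone, with 18 contigs. Next came 11 contigs absent in Lahijan alone, and 9 present in both highly resistant populations and absent in Lahijan and Rasht. Ramsar alone had 6, and another 6 were absent in Sari alone. The pattern on in all 3 resistant populations and off in Rasht had 5 contigs, and its opposite, on in Rasht alone, had 4. Of the 5, only Lahi_contig_17289 had 0 counts in every Rasht library used, and the others held counts there. Another 4 were on in Sari and Lahijan and off in Ramsar and Rasht, and 2 were off in Ramsar and Sari and on in Lahijan and Rasht. Lahijan alone had 1 contig, and 1 each was on in Ramsar and Rasht and in Sari and Rasht. No contig was absent in Ramsar alone or present in Ramsar and Lahijan alone.

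**Figure D1:**
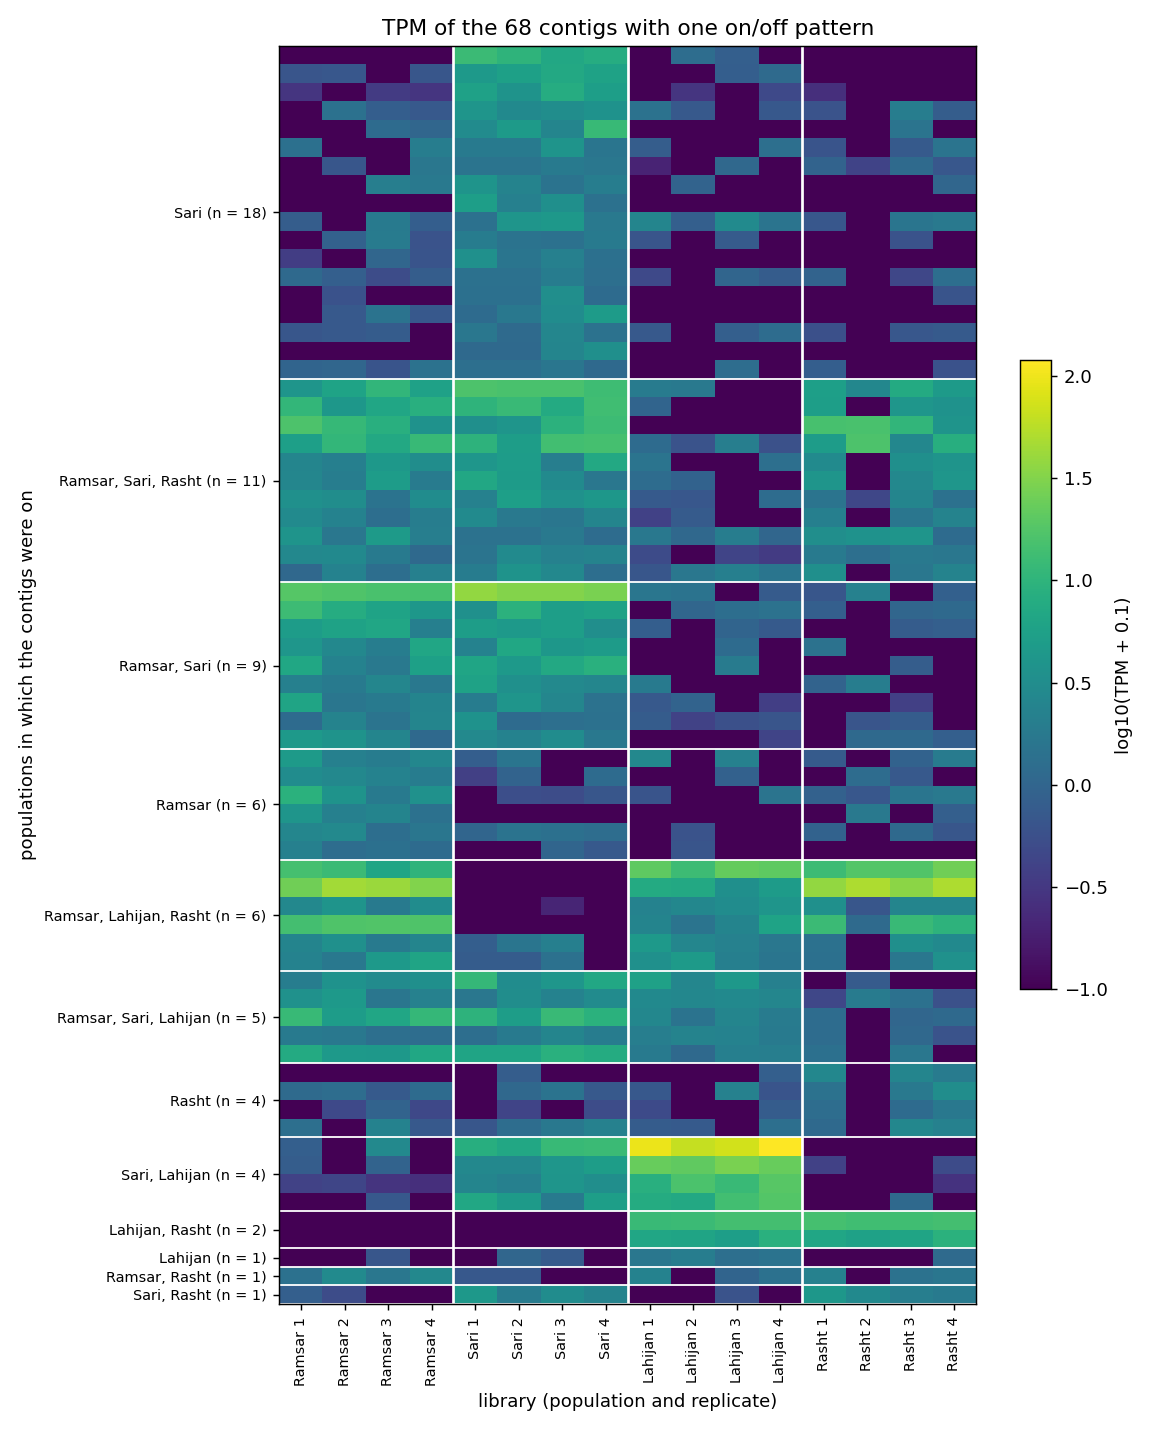
The heat map shows log10(TPM + 0.1) of the 68 contigs with one on/off pattern (rows, grouped by the populations in which they were on, with the number of contigs) in the 16 libraries (columns). The TPM of on and off libraries overlapped in 20 of the 68 rows (Rasht replicate 2 not used), and a few rows change from dark to bright. Among these are Sari_contig_5217 (block Lahijan, Rasht), Rasht_contig_3887 (block Ramsar, Lahijan, Rasht) and Lahi_contig_3314 (block Sari, Lahijan).

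By population, 38 of the 68 were on in Ramsar, 48 in Sari, 18 in Lahijan and 25 in Rasht. Over all contigs 62.4% were on in Ramsar, 63.8% in Sari, 59.0% in Lahijan and 59.8% in Rasht. The number off was 30 in Ramsar, 20 in Sari, 50 in Lahijan and 43 in Rasht, and 17.4%, 15.2%, 19.7% and 19.7% of all contigs were off in these populations. Sari therefore held the most of these contigs and Lahijan the fewest, and the rule itself used these counts. The limit for off is not scaled to library totals, which were 9154459 to 12567164 in Lahijan and 10806873 to 13773146 in Sari. In Rasht both conditions had to hold over 3 libraries only. The part of these differences in the ranking was not tested. The counts for pairs of populations below are of the 68 only, and contigs between the limits in another population are not in them. The matching counts over all contigs were not made, so nothing is read from how the pairs compare. Sari and Rasht were told apart by 49 of the 68 contigs, 36 on in Sari and off in Rasht and 13 the other way. Ramsar and Rasht were told apart by 27, of which 20 were on in Ramsar, and Lahijan and Rasht also by 27, of which 10 were on in Lahijan. Ramsar and Lahijan differed in 34, with 27 on in Ramsar, and Sari and Lahijan in 48, with 39 on in Sari. The 2 highly resistant populations differed in 36, of which 13 were on in Ramsar and 23 in Sari.

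The population in the identifier mostly named a population in which the contig was on, which held for 59 of the 68. Of the 29 contigs on in 1 population, 25 carried its name. The matching shares of all contigs were not counted, so nothing is read from these counts. Sari gave its name to 27 of the 68 contigs, or 39.7%, against 20.4% of all contigs. Ramsar gave 14, or 20.6% against 17%, and Lahijan 11, or 16.2% against 20.2%. Rasht gave 16, or 23.5% against 42.5%. The remaining 9 contigs were off in the population they are named after, 1 named after Ramsar, 2 after Sari, 2 after Lahijan and 4 after Rasht. Over all contigs, 19.9% of those named after Ramsar were off in Ramsar, and the shares were 14.9% for Sari, 16.9% for Lahijan and 6.32% for Rasht. How the contigs were assembled and named is not given in the sources used here.

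Most of these contigs were short and few reads stood behind them. Their median relative length was 0.153, and 37 of the 68 lay under the 10th percentile of all contigs (0.156). Contigs on in all populations had a median relative length of 1.31, and all contigs with a count 0.856. For contigs off in all populations that had a count it was 0.144, so short length was not particular to the 68. Relative length is the count per TPM of a contig divided by that of the median contig with counts in a library. For 52 of the 68, or 76.5%, 3 counts were worth at least 1 TPM, against 17.6% of all contigs with a count. In such contigs the limit for off lies above the limit for on. The TPM of the on and the off libraries overlapped for 20 of the 68, and the lowest count in an on library was 3 or fewer for 38.

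**Figure D2:**
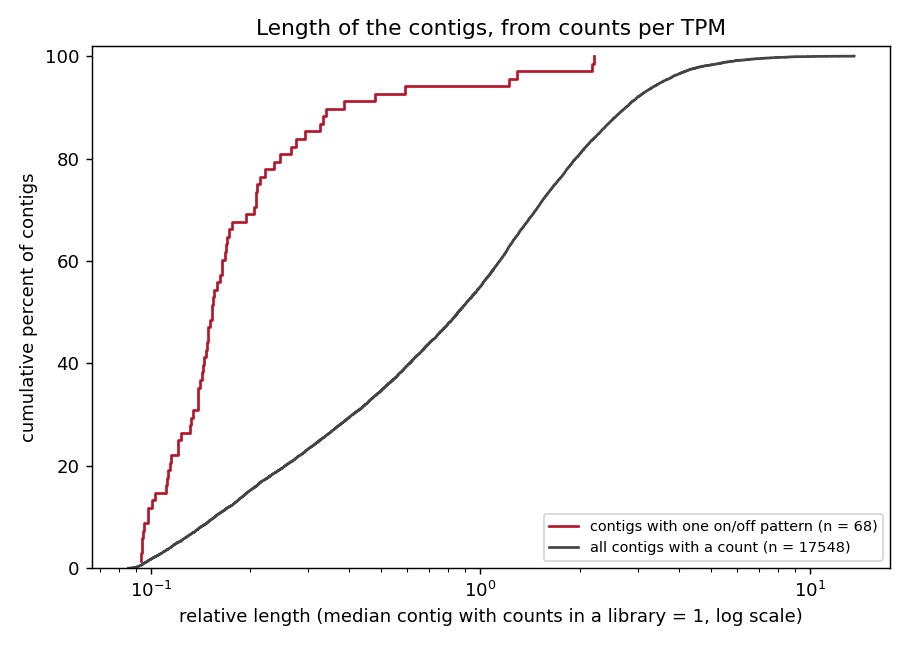
The lines give the cumulative percent of contigs (vertical axis) by relative length on a log scale (horizontal axis, median contig with counts in a library = 1), for the 68 contigs with one on/off pattern and for all 17548 contigs with a count. The line of the 68 lies to the left, with a median of 0.153.

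At the edge of the rule, on and off differed by a read or so. Rasht_contig_5539, on in Ramsar, Sari and Rasht and off in Lahijan, had its lowest on value at 1.01 TPM in Ramsar replicate 1, and stood at 1.55 and 2.01 TPM in Lahijan replicates 2 and 3. Sari_contig_20888, on in Rasht alone, had 1.02 TPM in Rasht replicate 1 and reached 2.22 TPM in Ramsar replicate 3. Its estimated counts were 9 over the 3 Rasht libraries used and 19 over the 12 libraries of the other populations. Just outside, Sari_contig_16694 missed the rule with 0.998 TPM in Sari replicate 4, and Lahi_contig_7598 with 0.982 TPM in Lahijan replicate 2. In all, 185 contigs missed the rule by 1 library under 1 TPM and 81 by 1 library over 3 counts. On in at least 1 population and off in at least 1 were 314 contigs, the 87 included, and the rest of them lay between the limits in another population.

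Levels were low also where the contigs were on. The median over the on contigs was 2.93 TPM in Ramsar, 3.17 in Sari, 3.30 in Lahijan and 2.75 in Rasht. Over all contigs on in the same populations it was 18.2, 17, 15.8 and 16.1 TPM. The median coefficient of variation between libraries was 33.8% over 129 pairs of a contig and a population in which it was on, against 13% over 43329 such pairs of all contigs.

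A cut at 10 estimated counts in every on library, set after the values were seen, separated 11 contigs from 57 others. That on and off TPM did not overlap in these 11 follows from the cut. Their counts summed over all off libraries were at most 7.1. The 11 were 2 contigs on in Sari alone, 1 off in Lahijan alone, 1 on in Ramsar and Sari, 3 off in Sari alone, 2 on in Sari and Lahijan, and 2 off in Ramsar and Sari. None of the 5 contigs off in Rasht alone and none of the 4 on in Rasht alone was among them. Sari_contig_4045, Rasht_contig_6609, Lahi_contig_7916 and Lahi_contig_10306 are described only because of this cut.

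**Figure D3:**
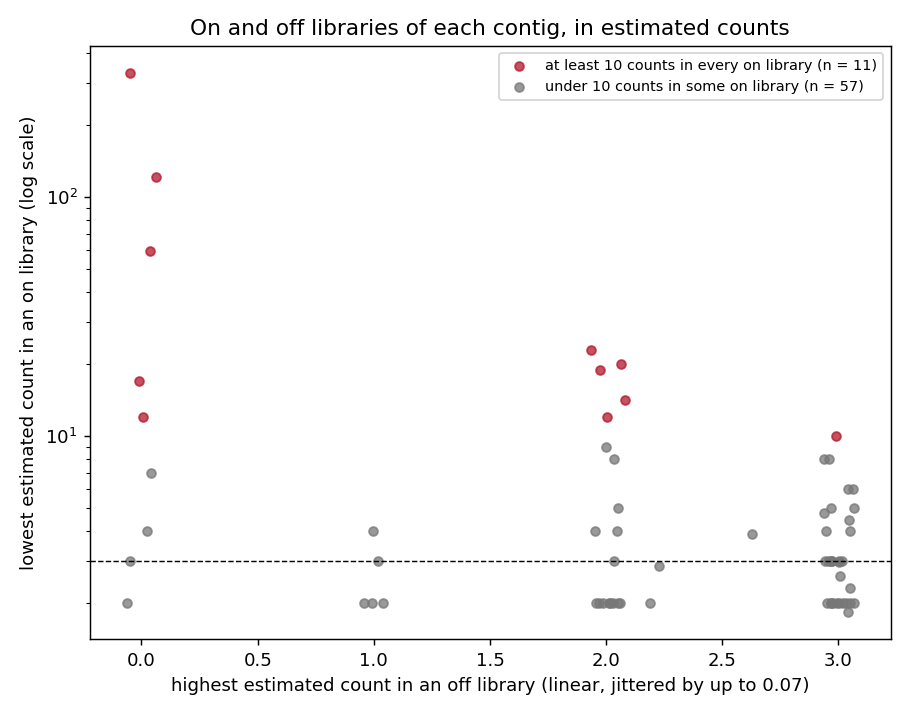
Each point is one of the 68 contigs, with its highest estimated count in an off library (horizontal axis, jittered by up to 0.07 to part the points) and its lowest estimated count in an on library (vertical axis, log scale). The dashed line marks 3 counts, and the 11 contigs with at least 10 counts in every on library stand above the 57 others.

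Sari_contig_5217 showed the widest gap. It stood at 0 TPM in every Ramsar and Sari library, and at 12, 12.5, 14.2 and 14.4 TPM in Lahijan and 14.8, 13.3 and 14.2 TPM in Rasht replicates 1, 3 and 4. It averaged 13.3 ± 1.20 TPM in Lahijan (SD, n = 4) and 14.1 ± 0.780 TPM in Rasht (SD, n = 3), so that all Lahijan and Rasht libraries used lay far above every Ramsar and Sari library. Its 2818 counts over the on libraries put it at least 1130-fold lower in Ramsar and Sari. This bound sets 3 counts over all off libraries in place of 0 and scales counts by library totals, as do all such bounds and ratios below. The contig carries the name of Sari, in which it was absent.

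Rasht_contig_5452 had the same pattern at a lower level. It stood at 0 TPM in Ramsar and Sari, 6.43, 6.16, 5.13 and 8.88 TPM in Lahijan, and 6.52, 6.15 and 9.02 TPM in Rasht replicates 1, 3 and 4. The Lahijan and Rasht libraries overlapped each other and lay apart from the others. It was at least 578-fold lower in Ramsar and Sari than in Lahijan and Rasht. These 2 were also the longest of the 68 contigs, with relative lengths of 2.18 and 2.21.

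Both contigs had fractional counts, so part of their reads also matched other contigs. In Sari_contig_5217 one off library held an estimated count of 3.1e-08, and in Rasht_contig_5452 one held 3.4e-07. Rasht_contig_6609 held up to 1.3e-05 in Lahijan. An estimated count this far under 1 can arise where reads that match several contigs are assigned almost wholly to another one. The values of contigs that share reads are uncertain to that extent. With counts under 0.001 taken as 0, 9 of the 68 contigs had 0 counts in every off library, and 6 had exactly 0.

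Rasht_contig_6609 was absent in Lahijan alone. It stood at 16.5, 11.4, 8.53 and 3.57 TPM in Ramsar, 3.30, 3.93, 9.49 and 12.8 TPM in Sari, 0 TPM throughout Lahijan, and 15.1, 10.4 and 3.84 TPM in Rasht replicates 1, 3 and 4. Its libraries varied widely within every population in which it was on, and these populations overlapped. It was at least 183-fold lower in Lahijan than in the others. Rasht_contig_8297, of the same pattern, averaged 6.55 ± 2.79 TPM in Ramsar, 15 ± 1.35 in Sari and 0.866 ± 1.00 in Lahijan (SD, n = 4 each), and 5.82 ± 1.51 in Rasht (SD, n = 3). Ramsar_contig_11358 averaged 7.49 ± 2.82 TPM in Ramsar, 10.8 ± 2.63 in Sari, 0.217 ± 0.433 in Lahijan and 4.24 ± 0.797 in Rasht. For these shorter contigs the on libraries held as few as 5 and 4 counts. Sari_contig_7113, a further contig of this pattern, averaged 2.94 ± 0.974 TPM in Ramsar, 4.49 ± 2.09 in Sari, 0.661 ± 0.767 in Lahijan and 3.29 ± 0.462 in Rasht.

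Rasht_contig_3887, Lahi_contig_5192 and Lahi_contig_7916 were off in Sari alone. Rasht_contig_3887 stood at 25.5, 44.1, 40.5 and 31.1 TPM in Ramsar, 0 in all 4 Sari libraries, 7.52, 7.15, 3.35 and 4.8 TPM in Lahijan, and 37.7, 34.3 and 49.7 TPM in Rasht replicates 1, 3 and 4. Ramsar and Rasht overlapped at a high level, Lahijan lay between, and Sari held no counts, a level at least 172-fold lower than in the others. Lahi_contig_5192 stood at 14.5, 12.3, 6.28 and 9.91 TPM in Ramsar, 0 in Sari, 20.7, 12.7, 22.4 and 20.3 TPM in Lahijan, and 12.6, 17.1 and 25.3 TPM in Rasht replicates 1, 3 and 4. It was at least 72.4-fold lower in Sari. Lahi_contig_7916 was weaker but long (relative length 1.22), at 2.63, 3.84, 1.71 and 2.99 TPM in Ramsar, 0.110 TPM in Sari replicate 3 and 0 in the other Sari libraries, 2.19, 2.52, 2.99 and 3.95 TPM in Lahijan, and 3.41, 2.41 and 2.42 TPM in Rasht replicates 1, 3 and 4. Against its 2 counts in Sari, the level in the other populations was 101-fold higher, with an exact 95% counting interval of 27.9 to 839.

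Of the contigs on in Sari alone, Sari_contig_11641 and Sari_contig_16884 had the highest lowest-TPM. Sari_contig_11641 stood at 0 in Ramsar, 12.5, 9.91, 6.83 and 7.93 TPM in Sari, 0, 1.16, 0.755 and 0 TPM in Lahijan, and 0 in Rasht. Every Sari library lay above every other library, and the ratio of Sari to the rest was 57.1 (counting interval 18.7 to 283). Sari_contig_4045 stood at 5.72, 3.69, 7.86 and 5.18 TPM in Sari and at no more than 0.378 TPM in any off library, a ratio of 41.8 (19.7 to 106). Sari_contig_16884 averaged 0.423 ± 0.283 TPM in Ramsar, 5.74 ± 1.05 in Sari and 0.451 ± 0.539 in Lahijan (SD, n = 4 each), with 0 counts in Rasht. Sari_contig_7605, singled out after its values were seen, had 34 counts in Sari, at 5.20, 2.08, 3.26 and 1.32 TPM, and 0 in the 11 off libraries used, at least 28.1-fold lower there. Ramsar_contig_20454, named after a population in which it was off, averaged 0.668 ± 0.541 TPM in Ramsar, 3.37 ± 0.486 in Sari, 0.647 ± 0.556 in Lahijan and 1.03 ± 0.752 in Rasht. Its Sari libraries held only 5 to 7 counts each.

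Sari_contig_4540 was on in both highly resistant populations and off in the others, where it was low but held counts. It stood at 18.3, 16.8, 15.4 and 15.1 TPM in Ramsar, 37.9, 31.7, 32 and 28.5 TPM in Sari, 1.51, 1.40, 0 and 0.665 TPM in Lahijan, and 0.560, 0 and 0.777 TPM in Rasht replicates 1, 3 and 4. Rasht replicate 2, which the rule left out, held 2.12 TPM from 5 counts. All Sari libraries lay above all Ramsar libraries, and these above all others. The ratio of Ramsar and Sari to Lahijan and Rasht was 35.1 (16.8 to 88.0). It is a very short contig, with a relative length of 0.111, and the Ramsar libraries held 19 to 27.3 counts of it. Sari_contig_6425 followed at 7.69 ± 3.65 TPM in Ramsar, 5.92 ± 2.47 in Sari, 0.869 ± 0.604 in Lahijan and 0.908 ± 0.142 in Rasht. Lahi_contig_16257, off in the population of its name, averaged 4.82 ± 1.97 TPM in Ramsar, 4.47 ± 0.904 in Sari, 0.571 ± 0.393 in Lahijan and 0.483 ± 0.420 in Rasht. Sari_contig_13686 had 3 counts in its lowest on library and also 3 in its highest off library, so on and off touched.

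Sari and Lahijan shared 4 contigs that carry the name of Lahijan. Lahi_contig_3314 stood at 0.745, 0, 2.70 and 0 TPM in Ramsar, 8.31, 6.93, 11.7 and 12.3 TPM in Sari, 96.9, 64.2, 74.2 and 119 TPM in Lahijan, and 0 in Rasht. The populations did not overlap, except for Ramsar and Rasht, which shared values of 0. Lahi_contig_5245 averaged 0.390 ± 0.454 TPM in Ramsar, 3.59 ± 1.17 in Sari, 23.9 ± 3.15 in Lahijan and 0.231 ± 0.207 in Rasht. Lahi_contig_10306 averaged 0.252 ± 0.0885 TPM in Ramsar, 2.90 ± 0.819 in Sari, 13.8 ± 4.44 in Lahijan and 0.0596 ± 0.103 in Rasht. In all 3 the Sari level lay between that of Lahijan and that of the off populations. The ratio of the on to the off populations was 107 (41.5 to 394) for Lahi_contig_3314, 42.2 (19.2 to 116) for Lahi_contig_5245 and 51.9 (25.3 to 132) for Lahi_contig_10306.

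**Figure D4:**
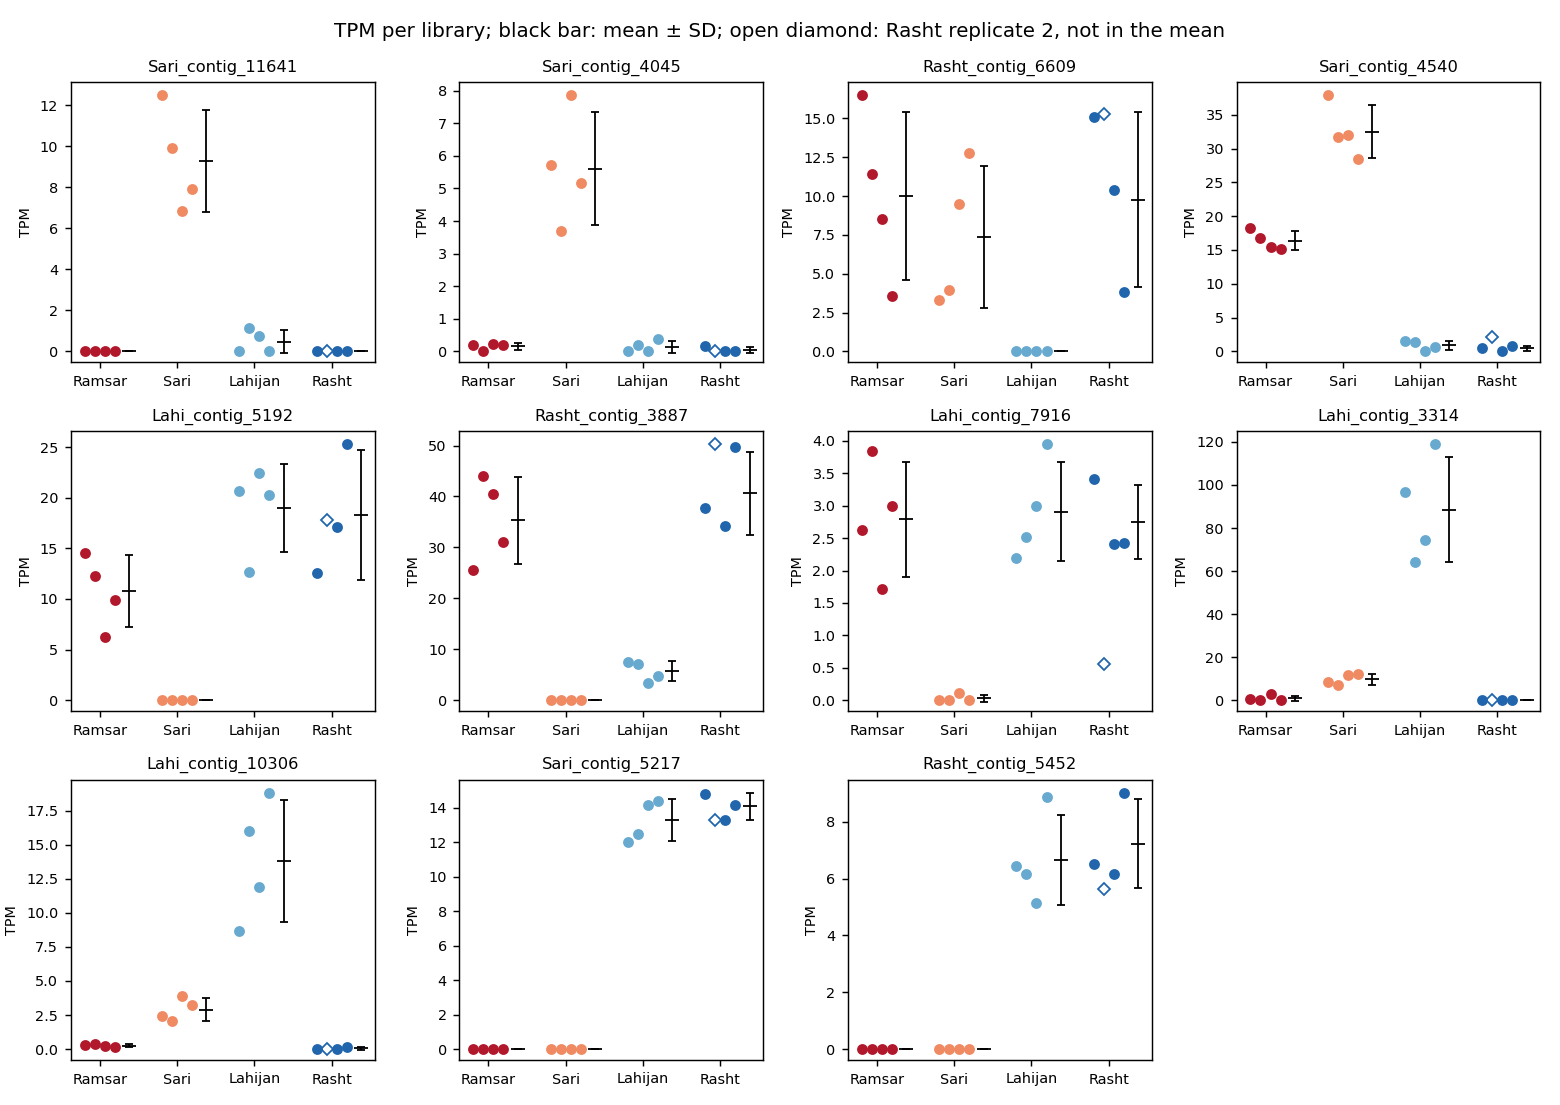
Each panel shows the TPM (vertical axis, linear) of one of the 11 contigs with at least 10 counts in every on library, with a point per library in Ramsar, Sari, Lahijan and Rasht, and the mean ± SD in black (n = 4, and n = 3 in Rasht, where the open diamond of replicate 2 is left out). The off populations lie at or near 0 in every panel, and in Lahi_contig_3314 and Lahi_contig_10306 the Sari points lie well under the Lahijan points.

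The remaining patterns held weak contigs. Of those off in Rasht alone, Lahi_contig_17289 had 0 counts in Rasht replicates 1, 3 and 4 and averaged 2.93 ± 0.735 TPM in Ramsar, 6.28 ± 3.64 in Sari and 3.61 ± 1.63 in Lahijan. The resistant populations stood at least 16.2-fold above Rasht, although Rasht replicate 2 held 4 counts of it, or 0.659 TPM. Rasht_contig_13787 averaged 2.91 ± 1.36 TPM in Ramsar, 2.45 ± 0.719 in Sari, 2.64 ± 0.155 in Lahijan and 0.702 ± 0.510 in Rasht, where it reached 1.29 TPM in replicate 3. Of those on in Rasht alone, Rasht_contig_12761 stood at 0 in Ramsar, 0.178 ± 0.356 TPM in Sari, 0.191 ± 0.381 in Lahijan and 2.26 ± 0.410 in Rasht, from 9 counts in the Rasht libraries used. Rasht_contig_14629 averaged 0.994 ± 0.237 TPM in Ramsar, 0.756 ± 0.593 in Sari, 0.820 ± 0.929 in Lahijan and 2.03 ± 0.923 in Rasht. Its highest off value, 2.16 TPM in Lahijan replicate 3, lay above Rasht replicates 1 and 3, at 1.34 and 1.67 TPM.

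In Ramsar alone, Ramsar_contig_15429 averaged 2.81 ± 1.28 TPM and Ramsar_contig_7154 2.44 ± 0.509 TPM. Ramsar_contig_15429 reached 2.66 TPM in Lahijan replicate 1, above its Ramsar replicates 2, 3 and 4. Lahi_contig_14594, the 1 contig on in Lahijan alone, averaged 0.140 ± 0.279 TPM in Ramsar, 0.401 ± 0.476 in Sari, 1.52 ± 0.288 in Lahijan and 0.353 ± 0.611 in Rasht. Ramsar_contig_21205, on in Ramsar and Rasht, averaged 2.09 ± 0.771 TPM in Ramsar, 0.302 ± 0.348 in Sari, 1.09 ± 0.910 in Lahijan and 1.68 ± 0.435 in Rasht. Rasht_contig_12883, on in Sari and Rasht, averaged 0.295 ± 0.369 TPM in Ramsar, 2.83 ± 1.09 in Sari, 0.126 ± 0.253 in Lahijan and 2.60 ± 1.32 in Rasht. Its on libraries lay above its off libraries, whereas those of Ramsar_contig_21205 overlapped.

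A library left out of the rule gives a measure that the rule did not use. The rule was applied without each library in turn, and the contigs with one pattern were then read in that library. Of contigs on in its population, 46.0% (Rasht replicate 4) to 90.5% (Ramsar replicate 4) had at least 1 TPM in the left-out library, and for all on contigs this share was 96.8% to 99.0%. These ranges leave out Rasht replicate 2, and in Rasht only 2 libraries were then left to the rule. The comparison was not matched for level, which was low where contigs with one pattern were on. Of contigs off in its population, 70.7% (Rasht replicate 1) to 98.0% (Lahijan replicate 3) had at most 3 counts in the left-out library, against 84.0% to 95.8% of all off contigs. Among contigs with at least 10 counts in every on library used, each left-out library had 5 to 8 that were on in its population. In every library at most 2 of these fell under 1 TPM, the 2 of 8 being in Sari replicate 2.

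**Figure D5:**
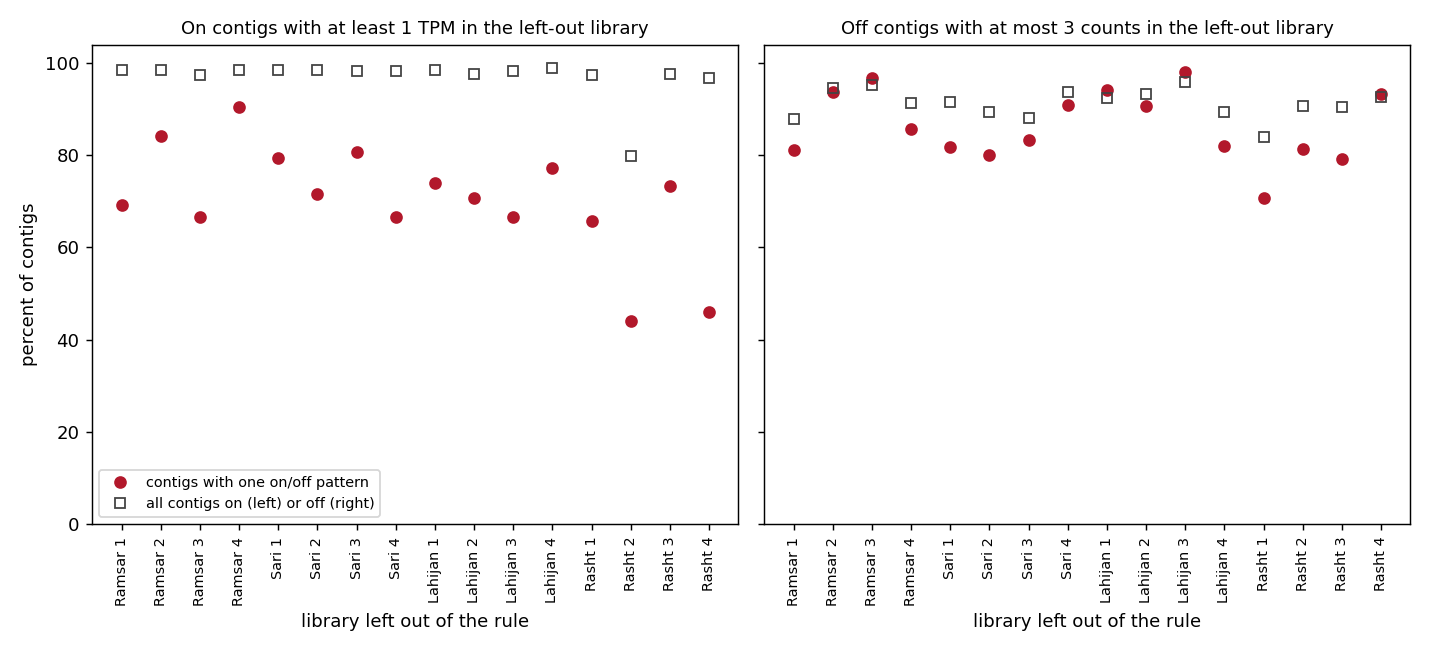
For each library left out of the rule (horizontal axis), the left panel gives the percent of contigs on in its population that had at least 1 TPM in that library, and the right panel the percent of off contigs that had at most 3 counts. Filled points are the contigs with one on/off pattern and open squares all contigs on or off. On the left the filled points lie between 44.0% and 90.5%, under the squares in every library. Points and squares are not matched for level.

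Rasht replicate 2 was the library the rule left out from the start. Of the 25 contigs on in Rasht, 11 (44.0%) had at least 1 TPM in it, against 79.9% of the 10568 contigs on in Rasht. Of the 43 contigs off in Rasht, 35 (81.4%) had at most 3 counts in it, against 90.6% of the 3466 contigs off in Rasht. In the other Rasht libraries the median of the means was 2.75 TPM for the 25 and 16.1 TPM for the 10568. The shares of on contigs were thus not matched for level. Of the 6 contigs with the highest mean in Rasht, 5 stood at 50.3 TPM (Rasht_contig_3887), 17.8 TPM (Lahi_contig_5192), 13.3 TPM (Sari_contig_5217), 15.3 TPM (Rasht_contig_6609) and 5.63 TPM (Rasht_contig_5452) in replicate 2. The exception was Ramsar_contig_8904, at 1.07 TPM in replicate 2, against 11.4 ± 1.64 TPM in the other Rasht libraries. Lahi_contig_7916 had 0.565 TPM, from 15 counts. Ramsar_contig_11358 and Sari_contig_7113 had 0 counts there, against 4.24 and 3.29 TPM on average in the other Rasht libraries.

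The other way round, 6 of the 43 contigs off in Rasht had at least 1 TPM in Rasht replicate 2, or 14%, against 7.36% of all contigs off in Rasht. The highest were Sari_contig_4540 at 2.12 TPM, from 5 counts, and Sari_contig_13686 at 1.93 TPM, from 6 counts. All 6 were among the 20 that were on in Ramsar, and none was among the 23 off in both Ramsar and Rasht. The 20 also stood higher in the other Rasht libraries, with a median of their means of 0.465 TPM, against 0.231 TPM for the 23. The matching shares of all contigs were not counted, so nothing is read from this split. The total of Rasht replicate 2 was the highest of the 16 libraries, and its part in these low counts was not tested.

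The rule did not use the difference in level between populations in which a contig was on. This difference was tested in one edgeR quasi-likelihood model of the 15 libraries, with p-values adjusted over all 12300 contigs tested. Calls needed an adjusted p under 0.05 together with a log2 fold change of 1 or more in either direction. Of the 68 contigs, 23 passed the filter on low counts, and 21 of the 39 that were on in at least 2 populations. A contig can pass this filter through the populations in which it is high alone, so the counts of calls below are shaped by the filter and nothing is read from their share. The log2 changes and adjusted p of contigs that passed in this way are likewise a description. The p-values rest on the spread between pools, and the labels call these biological replicates.

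Between Ramsar and Rasht, 0 of 10 tested contigs on in both were called by edgeR, where 5.41% of all contigs and 3.39% of those on in both populations were. At an unadjusted p under 0.05 the count was 1, and DESeq2 called 1. Lahi_contig_5192 passed the p threshold here but not the fold limit, with a log2 change of -1.0 ± 0.31 (adjusted p = 0.039 by edgeR), and was called in 6 of 20 alternatives (adjusted p 0.022 to 0.18). Between Sari and Rasht, 0 of 6 were called by edgeR, against 8.59% of all contigs and 5.13% of those on in both. Here 2 had an unadjusted p under 0.05, and DESeq2 called 1. Between Lahijan and Rasht, 2 of 6 were called, against 4.24% of all contigs and 3.21% of those on in both. Both were lower in Lahijan, where 1.67% of those on in both were. Between Ramsar and Lahijan, 5 of 7 were called, against 8.81% and 5.94%. Of these, 4 were higher in Ramsar, against 3.33% of contigs on in both, and 1 was lower, against 2.61%. Between Sari and Lahijan, 6 of 7 were called, against 8.89% and 5.41%. Of these, 2 were higher in Sari, against 3.6% of contigs on in both, and 4 were lower, against 1.81%. Between Ramsar and Sari, 1 of 11 was called, against 3.11% and 2.2%. It was lower in Ramsar, as were 1.42% of contigs on in both. Sari_contig_21905 and Rasht_contig_12021 held 5 or fewer counts in each Lahijan library, and Ramsar_contig_8904 held 4 to 17.2. Comparisons that use the same libraries are not independent.

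Rasht_contig_3887, absent in Sari, averaged 5.71 ± 1.98 TPM in Lahijan (SD, n = 4) and 40.6 ± 8.07 TPM in Rasht (SD, n = 3), and was lower in Lahijan with a log2 change of -2.78 ± 0.31 (SE; adjusted p = 8.7e-05 by edgeR). With 35.3 ± 8.53 TPM it was higher in Ramsar than in Lahijan, with a log2 change of 2.34 ± 0.30 (adjusted p = 0.00012 by edgeR). The library values of Lahijan overlapped neither those of Ramsar nor those of Rasht. Lahi_contig_5192, of the same pattern, went the other way. It averaged 10.8 ± 3.53 TPM in Ramsar and 19 ± 4.33 TPM in Lahijan, with a log2 change of -1.07 ± 0.29 (adjusted p = 0.016 by edgeR), with overlapping libraries. That call was lost without Ramsar replicate 3 or Lahijan replicate 3, and its adjusted p ranged from 0.0048 to 0.10 over 20 alternatives.

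Lahi_contig_3314 was lower in Sari than in Lahijan, at 9.81 ± 2.60 TPM in Sari and 88.5 ± 24.4 TPM in Lahijan, with a log2 change of -3.30 ± 0.36 (adjusted p = 2.6e-05 by edgeR). The other contigs shared by Sari and Lahijan were lower in Sari too. Lahi_contig_5245 had a log2 change of -2.92 ± 0.37, Lahi_contig_10306 of -2.49 ± 0.30 and Lahi_contig_10894 of -1.48 ± 0.49 (edgeR adjusted p = 4.4e-05, 2.7e-05 and 0.032). In each of them the 4 Sari libraries lay under the 4 Lahijan libraries. For Lahi_contig_10894 the gap was narrow, from 6.91 TPM in Sari to 7.15 TPM in Lahijan. How many of all contigs on in both populations do not overlap was not counted, so nothing is read from this. Lahi_contig_5245 and Lahi_contig_10894 could pass the filter on low counts through Lahijan alone, so their log2 changes are a description. The call of Lahi_contig_10894 was lost in 7 of 20 alternatives, among them without Sari replicates 2, 3 or 4 and without Lahijan replicates 3 or 4 (adjusted p up to 0.11).

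Sari_contig_21905, off in Rasht alone, averaged 8.94 ± 2.85 TPM in Sari and 2.03 ± 0.532 TPM in Lahijan, with a log2 change of 1.97 ± 0.39 (adjusted p = 0.0015 by edgeR). In Ramsar it averaged 8.61 ± 3.38 TPM, with a log2 change over Lahijan of 1.83 ± 0.39 (adjusted p = 0.0029 by edgeR). Rasht_contig_12021, of the same pattern, was higher in Ramsar and Sari than in Lahijan with log2 changes of 1.51 ± 0.45 and 1.91 ± 0.44 (edgeR adjusted p = 0.021 and 0.0041). Its libraries overlapped with those of Lahijan in neither comparison, and its call in Ramsar was lost without Ramsar replicate 1 or Lahijan replicate 2. In Rasht, where both contigs were off, Sari_contig_21905 averaged 1.03 ± 0.0980 TPM and Rasht_contig_12021 averaged 0.945 ± 0.833 TPM, close to the limit for on. Both had few counts in Lahijan and could pass the filter on low counts through Ramsar and Sari alone, so their log2 changes are a description.

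Ramsar_contig_8904, absent in Sari, averaged 16.3 ± 1.29 TPM in Ramsar, 3.0 ± 1.99 in Lahijan and 11.4 ± 1.64 in Rasht. It was lower in Lahijan than in Rasht with a log2 change of -1.89 ± 0.36, and higher in Ramsar than in Lahijan, with one of 2.18 ± 0.34 (edgeR adjusted p = 0.0047 and 0.00051). In Rasht replicate 2 it stood at 1.07 TPM. It could pass the filter on low counts through Ramsar and Rasht alone, so these log2 changes are a description. Sari_contig_4540 was lower in Ramsar, where it averaged 16.4 ± 1.46 TPM, than in Sari, where it averaged 32.5 ± 3.94 TPM, with a log2 change of -1.07 ± 0.28 (adjusted p = 0.026 by edgeR). Its call was lost in 8 of 20 alternatives, among them without Ramsar replicates 2, 3 or 4 and without Sari replicates 1, 2 or 3 (adjusted p up to 0.46). The log2 change was -1.12 to -1.01 over the 20 alternatives, and the 4 Ramsar libraries all lay under the 4 Sari libraries.

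With Rasht replicate 2 included in the model, 5 of the 14 calls were lost. They were Ramsar_contig_8904 between Lahijan and Rasht, Rasht_contig_12021 and Lahi_contig_5192 between Ramsar and Lahijan, Lahi_contig_10894 between Sari and Lahijan, and Sari_contig_4540 between Ramsar and Sari. Ramsar_contig_8904, Rasht_contig_12021 and Lahi_contig_10894 were singled out after their values were seen, because they were called.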

How the data were processed

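PolyA RNA of 16 pools of adult females, 4 per population, was sequenced by the authors, and the labels call the libraries of a population biological replicates. The deposited table gives estimated counts and TPM per contig and library, as deposited by the authors. Per the submitters' processing notes, kallisto, sleuth 0.29.0, FastQC 0.11.4, limma 3.43.9, edgeR 3.20.9 and R 3.4.4 were used, in roles that are not stated. How the contigs were assembled and counted is not given in the sources used here.

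On and off were set from TPM and from the estimated counts as deposited. For the tests the estimated counts were rounded to whole numbers. Rasht replicate 2 was left out and low counts were filtered by edgeR's filterByExpr, leaving 12300 contigs. The 4 populations were fitted in one edgeR 4.0.16 quasi-likelihood model with TMM scaling in R 4.3.3, with Benjamini-Hochberg adjustment over all contigs tested. DESeq2 1.42.0 was an alternative, and the model was tested on simulated data. Other values came from Python 3.11.15 with pandas 2.3.3 and scipy 1.17.1. The 15 libraries held 9154459 to 15209694 estimated counts. Counting intervals are exact (Clopper-Pearson, 95%) and cover counting error only.

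The contigs named were those with the highest lowest-TPM in each pattern (2 each) and among those off in the population of their name (3). Further ones were the largest called rise and fall in each comparison, 2 off and 2 on in Rasht that went the other way in Rasht replicate 2, and those at the edge of the rule. The rule and the lists were chosen with earlier results of these data known.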

Additional observations from a re-analysis of the deposited data

Results flagged for a closer look

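Of the 68 contigs with one pattern, 22 had at least 1 TPM in Lahijan replicate 2, against 29 in each of the other Lahijan libraries, which set this library apart from its group. Lahijan replicate 2 also had the lowest share of all contigs with at least 1 TPM in its group, 65.4% against 66.9% or more. The difference is thus not particular to the 68. In Rasht replicate 2, 45 of the 68 had 0 counts, against 20 to 23 in the other Rasht libraries. The rule used those other libraries and not replicate 2, so this difference is partly built in. Over all contigs 29.9% had 0 counts in Rasht replicate 2, against 12.1% to 14.5% in the other Rasht libraries. These 2 flags came from 64 groups of 4 libraries examined for a library that stands apart, and chance gives about 1 in 20. In Rasht replicate 2, which the rule left out, 6 of the 43 contigs off in Rasht had at least 1 TPM. The cause of these differences was not tested.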

How the results depend on the processing

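The number of contigs depended on the limits. The rule gave 87, and 518 with on at 0.5 TPM, 6 with on at 5 TPM, 6 with off at 0 counts, 654 with off at up to 10 counts and 6 with on at 20 counts or more. It gave 58 with Rasht replicate 2 included. In alternatives chosen after seeing the data, it gave 9 with off under 0.001 counts and 68 without contigs that met both conditions. Leaving out 1 library at a time gave 100 to 133, the most without Rasht replicates 1 (133) and 4 (131), since each condition is easier to meet over fewer libraries.

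Of contigs on in Rasht, 11 of 25 (44.0%) had at least 1 TPM in Rasht replicate 2, and 1 of 1 did when contigs were chosen at 5 TPM and 0 counts. No contig off in Rasht was left by that choice, so the number at or under 3 counts was 0, against 35. Leaving out 1 other Rasht library at a time gave 11 to 14 and 35 to 47, but of more contigs: 13 of 35 (37.1%) without replicate 1, 11 of 30 (36.7%) without replicate 3 and 14 of 50 (28%) without replicate 4 for those on, and 79.5% to 81.1% for those off.

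Calls between Ramsar and Rasht were 0, and 1 with DESeq2 size factors, with no filter, with Rasht replicate 2 included and with DESeq2. Between Sari and Rasht they were 0, and 1 with DESeq2. With Rasht replicate 2 included, calls were 1 instead of 2 between Lahijan and Rasht, 3 instead of 5 between Ramsar and Lahijan, and 0 instead of 1 between Ramsar and Sari. Leaving out 1 library at a time gave 0 to 1 between Ramsar and Rasht (1 without Ramsar replicate 1 or Rasht replicate 1), and 0 to 1 between Sari and Rasht (1 without Ramsar replicate 3, Lahijan replicate 1 or Lahijan replicate 4). It gave 0 to 1 between Ramsar and Sari (0 without Ramsar replicates 2 or 4 or Sari replicates 1, 2 or 3; without Ramsar replicate 3, Sari_contig_4540 lost its call and Rasht_contig_8297 gained one). The ranges were 2 to 2 between Lahijan and Rasht, 4 to 5 between Ramsar and Lahijan and 5 to 6 between Sari and Lahijan. For single contigs, 258 values under an alternative kept direction and call, 22 lost the call and 0 reversed. The cause of these changes was not tested.

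With the replicate number as a block, calls were 0 instead of 1 between Ramsar and Sari, 5 instead of 6 between Sari and Lahijan, and the same number in the other comparisons. Deviations from the population means correlated at -0.229 to 0.172 over 21 same-numbered pairs, with 2 pairs over 0.1. Their median was -0.00323, against 0.00316 over 63 pairs with different numbers. No pairing by number was seen in these values, which cannot exclude one. The median lowest count in an on library was 3, so most patterns rest on a few reads.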

Other observations

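Counts were whole numbers in all libraries, within 0.001, for 41 of the 68 contigs, or 60.3%, against 42.3% of all contigs with a count. Among the 11 contigs with at least 10 counts in every on library, 4 had whole counts: Lahi_contig_7916, Lahi_contig_3314, Sari_contig_11641 and Sari_contig_4045. The summed TPM of the 68 contigs was 208 to 240 in the Ramsar libraries, 225 to 253 in Sari, 185 to 273 in Lahijan and 165 to 185 in Rasht replicates 1, 3 and 4, and 143 in Rasht replicate 2.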
